A study of Mus musculus with 4 samples.

Results

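The Ly6 surface antigens Ly6c2, Ly6e, Ly6a and Ly6d were followed through 4 Affymetrix arrays of naive and memory CD8 T cells. Every probe set annotated with 1 of these 4 symbols alone was taken, which gave 4 probe sets among 13179 on the A and B chips together and values for 3 of the 4 genes, of 6137 named genes in all. Ly6c2 was read by 1 probe set on each chip, Ly6e by 1 on the A chip and Ly6d by 1 on the B chip. Ly6a had no probe set listed under its symbol in the annotation used, so it has no value here. The rule left 2 probe sets for a comparison between memory and naive cells, both on the B chip, and 2 for a level in memory cells, both on the A chip.

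The cells came from B6.2.16 mice, whose CD8 T cells express a T cell receptor transgene specific for the HY antigen of males, and all donors and hosts were female and deficient in RAG1, a recombinase that T and B cells need to assemble their own receptors. The naive preparation was taken from lymph nodes and was more than 85% pure by the labels. The memory preparation started from splenocytes kept in culture with HY peptide for 4 days. These cells were transferred into hosts and recovered 200 days later from spleen and lymph nodes with magnetic beads, more than 80% pure by the labels. Each preparation's RNA was read on both chips, with 1 memory and 1 naive array per chip. Without a second array of either group on a chip there is no spread between samples, no standard error and no p-value, and each difference below compares 1 array with 1 other. Tissue, culture, transfer, time and sorting differed together with the group and cannot be told apart.

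Ly6 antigens are small surface proteins built on the LU domain, a compact fold held by disulfide bonds, and most are tied to the membrane by a glycosylphosphatidylinositol (GPI) anchor. In the mouse, Ly6C is found on inflammatory monocytes and on memory CD8 T cells. Ly6A, also called Sca-1, marks activated T cells and blood stem cells. Ly6E is widely made in blood cells and Ly6D marks early B lineage cells. Interferons raise Ly6C, Ly6A and Ly6E in many cell types.

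The family lies in a cluster on chromosome 15 whose genes arose by duplication. In the RefSeq gene table for GRCm38.p6, 22 protein-coding genes run from Ly6d to Ly6h, 15 of them with a Ly6 symbol, and 6 of these 15 had a named probe set on either chip. Ly6c1 and Ly6a2 are the protein-coding neighbours of Ly6c2 on either side. Both Ly6c2 probe sets belong to the sequence-family class (probe set names ending in _f_at), in which a probe can match more than 1 gene of a family, so neither separates Ly6c2 from close copies. The probe sequences were not used here. The RefSeq promoter table (GRCm38.p6) holds an entry for 1 of the 4 genes, Ly6c2. The 250 bases before its most upstream listed start (chr15:75111972-75112221, minus strand) are shown with those of both neighbours, Ly6a2 (chr15:75135129-75135378, minus strand) and Ly6c1 (chr15:75048838-75049087, minus strand), to show how alike the gene copies are. Capitals mark bases that differ from Ly6c2, or are inserted relative to it, where the windows overlap. Bases missing from a copy leave no mark.
Ly6c2: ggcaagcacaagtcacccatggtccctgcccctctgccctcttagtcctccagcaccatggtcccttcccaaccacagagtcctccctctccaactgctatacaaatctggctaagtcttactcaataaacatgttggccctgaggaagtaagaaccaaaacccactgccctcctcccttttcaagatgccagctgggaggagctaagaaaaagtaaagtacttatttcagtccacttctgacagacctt
Ly6a2: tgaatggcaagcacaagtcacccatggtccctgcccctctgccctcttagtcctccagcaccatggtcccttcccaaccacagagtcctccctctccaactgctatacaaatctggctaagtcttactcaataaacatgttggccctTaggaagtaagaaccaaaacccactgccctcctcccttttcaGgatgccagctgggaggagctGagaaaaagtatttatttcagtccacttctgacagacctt
Ly6c1: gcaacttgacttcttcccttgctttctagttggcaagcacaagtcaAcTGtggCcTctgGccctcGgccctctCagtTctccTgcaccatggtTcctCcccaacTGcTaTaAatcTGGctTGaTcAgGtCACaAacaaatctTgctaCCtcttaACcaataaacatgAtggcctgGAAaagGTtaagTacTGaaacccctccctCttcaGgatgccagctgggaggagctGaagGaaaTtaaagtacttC
The Ly6a2 window matched Ly6c2 in 242 of 250 aligned columns (96.8%), with 3 substitutions and 5 gap columns. The Ly6c1 window matched it in 170 of 234 columns (72.6%). The Ly6f and Ly6g windows, prepared the same way, matched it in 71.2% and 66.8% of the overlap. These are promoter windows, not the transcribed sequences that the probes read.

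The interferon-gamma activated site, searched as TTCNNNGAA on both strands, was found in 0 of the 5 windows (Ly6c2, Ly6a2, Ly6c1, Ly6g and Ly6f), against 7.02% of 32851 promoter windows of that length. These 5 windows, of genes that arose by duplication, are too few to be set against that share. The letters are absent from these windows only, and nothing follows from this about the factors that bind the motif.

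The Ly6c2 probe set on the B chip gave a bright signal in the memory preparation and a lower one in the naive preparation. The deposited intensity was 3465 on the memory array and 1001 on the naive array. After both arrays were scaled to the same trimmed mean, the values were 3439 and 1009, a 3.41-fold higher signal in memory (log2 ratio 1.77). Both values lay above the noise floor of 423, a limit set from the size of the negative intensities, by 8.14 times in memory and 2.39 times in naive. The ratio therefore rests on measured values on both sides and is not a bound. In these mixed preparations, more cells carrying a matching transcript and more of it per cell cannot be told apart. On brightness alone, the Ly6c2 probe set stood at rank 36 of 6540 gene probe sets on the memory array and at rank 345 on the naive array.

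Of the 2 member probe sets on the B chip, Ly6c2 alone passed the call rule. The rule asks for a brighter array of at least 2 times the floor and a difference of at least 2-fold. Ly6d, under the floor on both arrays, was not bright enough to be called. Of the 522 B-chip probe sets bright enough to be called, 12.8% were higher in memory and 21.6% were lower. The log2 ratio of Ly6c2 ranked 13th among these 522, whose median was -0.25 and whose central 90% ran from -1.78 to 1.37. Because Ly6c2 was already known to differ on these arrays when it was chosen, its place in this ranking is a description.

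The sequence-family class as a whole leaned the other way as scaled here. Of its 233 bright probe sets, 8.15% were higher in memory and 29.2% lower, with a median log2 ratio of -0.51. Of the 289 other bright probe sets, 16.6% were higher and 15.6% lower, with a median of -0.02. Ly6c2 ranked 4th by log2 ratio within the sequence-family class. The direction of Ly6c2 was thus opposite to that of most probe sets of its class. The lean of the class depended on the scaling: its median was -0.18 with quantile and -0.10 with intensity-dependent (lowess) normalization, with 28 higher and 30 lower calls under the former and 22 of each under the latter.

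**Figure D1:**
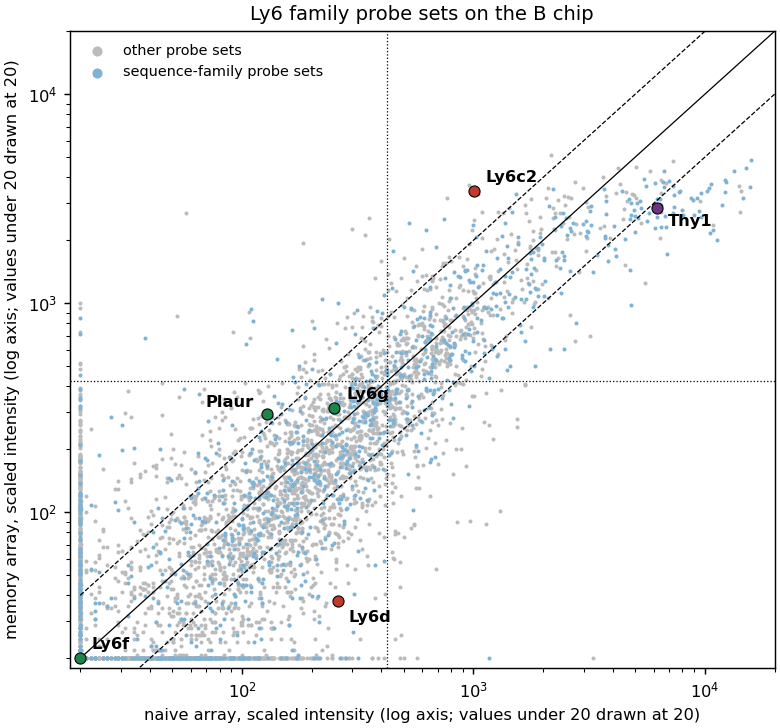
Scaled intensity of each B-chip gene probe set on the naive array (horizontal log axis) and the memory array (vertical log axis), with values under 20 drawn at 20. The solid line marks equal signal, the dashed lines 2-fold and the dotted lines the floor of 423. Ly6c2 (3439 against 1009) lies above the upper dashed line, and Ly6d, Ly6g, Ly6f and Plaur lie under the floor on both arrays.

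The scaling of the arrays moved the size of the Ly6c2 difference and not its direction. The log2 ratio was 1.79 without scaling, 1.92 with scaling by the median ratio, 1.86 with lowess normalization and 2.40 with quantile normalization, a 5.28-fold difference. Quantile normalization raised the memory value to 5344 and left the naive value at 1013. The split of all calls did depend on the scaling: 37.2% of called probe sets were higher in memory as reported, 50.8% with the median ratio, 57.8% with quantile and 58.5% with lowess normalization. The median ratio shifted the median of all measured probe sets by 0.11 on the log2 scale. Relative to that median, the log2 ratio of Ly6c2 was 1.89 as reported and 1.94 with the median ratio. Scaling on the sequence-family probe sets alone, chosen after the data were seen, shifted the median by 0.26, gave 64.7% higher calls and a Ly6c2 log2 ratio of 2.14. Halving or doubling the floor left the log2 ratio at 1.77, since the naive value stayed above the doubled floor of 845.

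**Figure D2:**
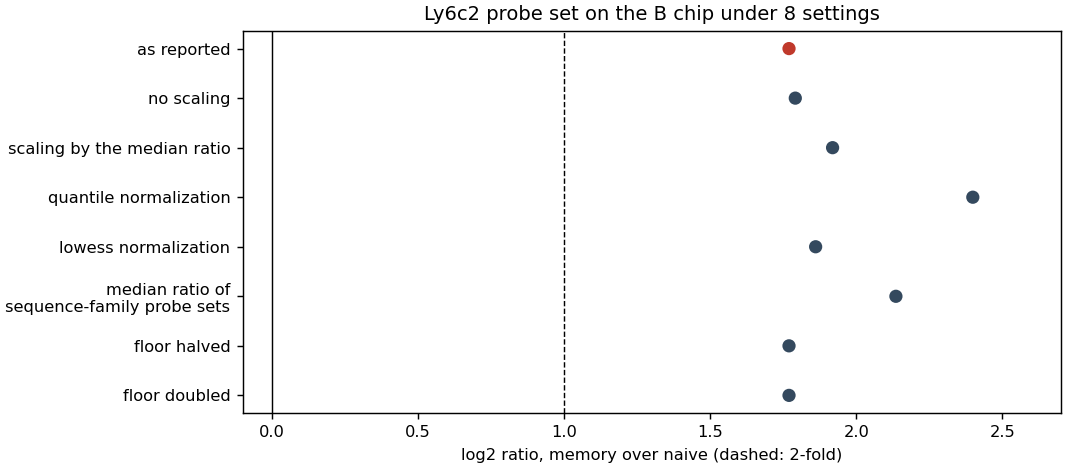
Log2 ratio of memory over naive for the Ly6c2 probe set on the B chip, as reported (red) and under each alternative scaling or floor (dark), with 1 point per setting and no error since each group has 1 array. All points lie between 1.77 and 2.40, to the right of the dashed 2-fold line.

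Ly6d, the B lineage antigen, was not measurable on the B chip. Its deposited intensities were 38 in memory and 257 in naive, or 37.7 and 259 after scaling, both under the floor. No ratio is given, since both values lie within the range of noise and a difference was not detectable at this signal. With the floor halved to 211 the naive value alone passed it. The floored ratio was then 1.22-fold towards naive and was not called. The deposited naive value of 257 was still under that array's own noise limit of 419.6, so this is not a measured difference. The naive value stood at percentile 78.1 of its array by brightness and the memory value at percentile 49.8. All 4 B lineage markers on the B chip were under the floor on both arrays as well. These were Cd79a, a signalling chain of the B cell receptor, the surrogate light chain genes Vpreb1 and Igll1, and the transcription factor Pax5. With negative values set to 0, they summed to 108 in memory and 466 in naive, of which Vpreb1 made up 353 in naive. Each value lay under the floor, so the sums are not compared. Of 6 B lineage markers on the memory A array, 1 passed the noise limit of 184, Ms4a1 (the CD20 antigen) at 301. Over all named genes, 26.3% passed the floor on the B chip and 29.6% the limit on the memory A array.

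On the A chip the members are given as levels in memory cells only. The naive A array could not be matched to its gene names by its values: across 6529 gene probe sets their Spearman correlation with the memory A values was 0.10, against 0.85 across 6540 on the B chip. The control probe sets of the memory A array correlated with those of the memory B array at 0.96, and those of the naive A array with the naive B array at 0.21, each over 55. Probe sets share an array, so these are descriptions.

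Ly6e, a GPI-anchored antigen of thymocytes and many blood cells, read 1166 on the memory A array. This was 6.34 times that array's noise limit of 184 and stood at percentile 97.0 of 6529 gene probe sets by brightness. Its probe set is outside the sequence-family class, though its name carries the letter s, which marks probes shared by more than 1 transcript. The A-chip Ly6c2 probe set read 1873, or 10.2 times the limit, at percentile 99.2 of all gene probe sets and percentile 92.7 of the 409 sequence-family ones. Both member probe sets on the memory A array, Ly6c2 and Ly6e, were thus well above its noise limit, which 26.8% of all gene probe sets passed. Ly6c2 was bright in memory on both chips, read by different probe sets. Brightness depends on the probes, so Ly6e and Ly6c2 are not set against each other and the chips are not compared.

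**Figure D3:**
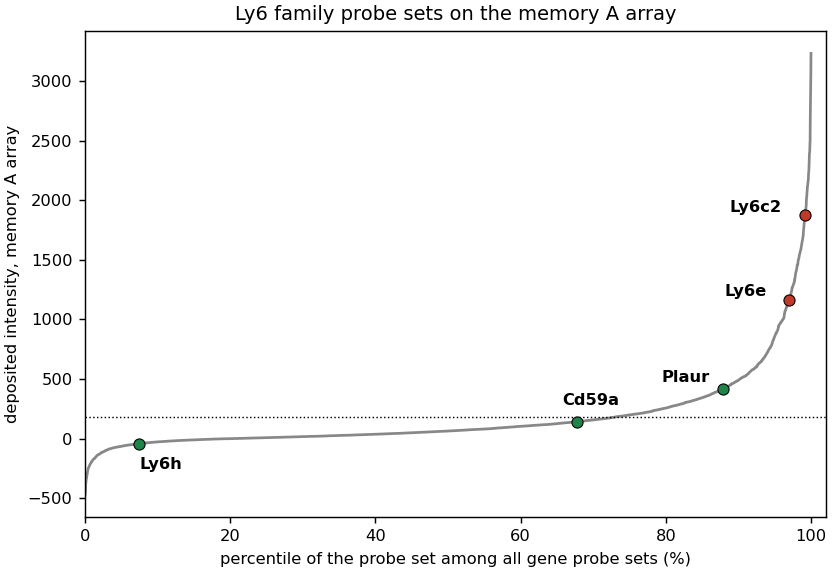
Deposited intensity on the memory A array (vertical axis) against the percentile of each gene probe set by brightness (horizontal axis), drawn as a line over 6529 probe sets. Ly6c2 (1873) and Ly6e (1166) are in red, the relatives Plaur, Cd59a and Ly6h in green, and the dotted line is the noise limit of 184.

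Of 47 listed relatives with the LU domain, 6 had a named probe set on the B chip and 0 of them passed the floor on either array, against 26.3% of all 1760 named genes there. Most genes on the chip were thus under the floor too. Among the 6 relatives were Ly6g, the granulocyte antigen, at 314 in memory and 249 in naive, and Ly6f at 4.96 and -51.4. On the memory A array 1 of 11 relatives passed the noise limit, against 29.6% of all named genes. It was Plaur, the urokinase receptor, at 418, whose B-chip probe set read 295 in memory and 128 in naive, under the floor. That floor came from the noisier naive array. The memory B array's own limit was 288.9 before scaling, and Ly6g and Plaur lay just above it in memory. The complement inhibitor Cd59a read 142 and Ly6h, a brain-expressed member, read -43. These relatives were picked for naming after their values were seen.

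Of all named genes, 26.3% passed the floor on the B chip and 29.6% the limit of 184 on the memory A array. Among the genes that build and attach the GPI anchor, 0 of 2 passed on the B chip and 2 of 7 on the memory A array. These were Gpaa1, a subunit of the transamidase that joins protein and anchor, at 436, and Pigq, a subunit of the enzyme that starts anchor synthesis, at 351. Of the other GPI-anchored surface proteins, 4 were measured on the B chip. Of these, 0 were higher, 1 was lower and 3 lay within 2-fold, with a median log2 ratio of -0.01 against -0.12 over all 462 measured genes. Of those 462 genes, 8.87% were higher and 8.66% lower, and 4 genes are too few to be set against these shares. The lower one was Thy1, the GPI-anchored pan-T cell antigen of the mouse, at 2848 in memory and 6184 in naive, a log2 ratio of -1.12. The call was lost with the median ratio (-0.97), quantile (-0.34) and lowess normalization (-0.14) and with scaling on the sequence-family probe sets (-0.75). The median of the 4 was 0.14, 0.07, 0.05 and 0.36 under these, with 0 called in either direction. Cd14, a GPI-anchored monocyte receptor for bacterial lipopolysaccharide, had a log2 ratio of 0.42 (2596 against 1933).

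Because interferons raise Ly6 genes, the interferon-induced genes were listed beside them. Of 6 measured on the B chip, 2 were at least 2-fold higher in memory, 0 were lower and 4 were not called. Over all 462 measured genes 8.87% were higher, and over the 522 probe sets bright enough to be called 12.8%. Psmb8, Psmb9 and Ifi47 lay within 2-fold as scaled here. Oas1g (445 against 179) was too dim for the call rule, and its ratio is a bound. The median log2 ratio of the 6 was 0.75 (0.76 with quantile and 0.90 with median-ratio scaling). Over the 462 genes it was -0.12 as scaled here. The higher pair were the ubiquitin-like Isg15 (2560 against 355) and the DNA sensor Ifi204 (938 against 110). Both naive values were under the floor, so their folds are at least 6.06 and at least 2.22. On the memory A array, where Ly6e was read, 23 of 27 interferon-induced genes passed the noise limit, against 29.6% of all named genes. The antiviral enzyme Rsad2 read 2033 there, the transcription factor Irf1 1270 and Irf7 1155. Whether interferon took part in the Ly6 signals was not tested.

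The genes nearest to Ly6c2 in brightness on the B chip arrays included genes of macrophages. By distance over the log2 intensities of both arrays, among 1759 other genes, the nearest was Mpeg1, a pore-forming protein of macrophages (3665 against 954, distance 0.12). Next came Csf1r, the macrophage growth factor receptor (2723 against 1090, distance 0.36), the class II chain H2-Ab1 (2500 against 1009, distance 0.46) and the lectin Lgals3 (2366 against 995, distance 0.54). Another Mpeg1 probe set, on the A chip, read 96 on the memory A array, under its noise limit of 184. The measure rests on 2 arrays and on the brightness of different probes, so it describes only where these points lie.

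Among the markers of monocytes and macrophages, 5 of 10 measured on the B chip were at least 2-fold higher in memory, as Ly6c2 was. Of the 462 measured genes 8.87% were higher, and of the 522 probe sets bright enough to be called 12.8%. All 10 markers were bright enough to be called, so the share of bright probe sets is the closer comparison. Higher were Mpeg1 (log2 ratio 1.94), Mrc1 (1.60), Csf1r (1.32), Apoe (at least 1.24) and C1qb (1.14). Of the rest 0 were lower and 5 lay within 2-fold, among them Vcam1 (log2 ratio 0.08), C1qc (0.25) and Cd14 (0.42), and the median log2 ratio was 0.98. With quantile normalization 8 of them were higher and with lowess 7, again with 0 lower. With negative values set to 0, the summed signal of all 11 markers on the B chip, Cybb included, was 27381 in memory and 15946 in naive. Of the 11 on the chip, Cybb alone was under the floor on both arrays, while 26.3% of all named genes there passed it. On the memory A array 6 of 8 passed the noise limit, against 29.6% of all named genes, and Fcgr1 and Mpeg1 did not. The summed signal of the 5 T cell markers on the B chip, Cd2 included, was 4797 in memory and 8306 in naive. Thy1 made up 2848 and 6184 of it. Of 4 measured, 0 were higher, 1 was lower (Thy1, a call that depended on the scaling) and 3 were not called, and Cd2 was under the floor. Only 2 of the 4, Thy1 and Cd3d, exceeded the floor on both arrays. Cd3g read 254 in memory, under the floor, and 502 in naive. The ratios of Cd3g and Cd8a are thus bounds, and neither gene was bright enough to be called. The coreceptor chain Cd8a read 498 in memory and 352 in naive, which was below the floor. Dendritic cell markers split, with 1 of 4 measured higher (H2-Ab1) and 1 lower, the class II invariant chain Cd74 (3068 against 9507), whose call was lost with quantile and lowess normalization. The part of myeloid cells in the Ly6c2 difference was not tested.

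**Figure D4:**
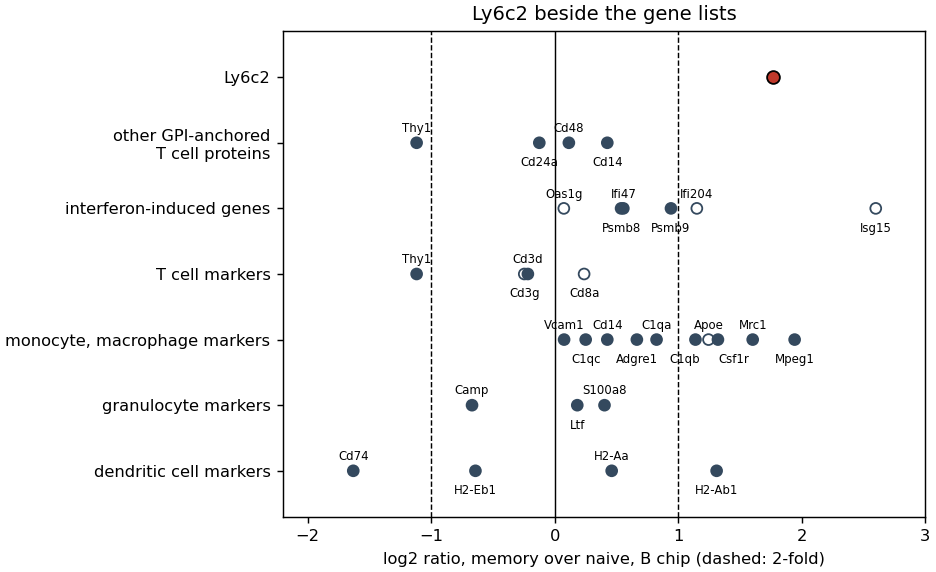
Log2 ratio of memory over naive on the B chip for Ly6c2 (red) and for the measured members of 6 gene lists, with 1 point per gene. Open points have 1 array under the floor and show a bound, dashed lines mark 2-fold. Ly6c2 (1.77) lies near the upper end of the monocyte and macrophage markers, just below Mpeg1 (1.94).

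Of 4 memory CD8 markers on the B chip listed beside Ly6c2, 2 were measured. Cd44 (45.7 in memory and 4.03 in naive) and the integrin chain Itga4 (61.5 and 144) were under the floor on both arrays. The integrin chain Itgb1 was higher in memory, with a log2 ratio of 1.07 (1554 against 741). The granule protease Gzma was lower, with a log2 ratio of -1.02 (1404 against 2848), and lay inside 2-fold without scaling and with each other scaling, for example -0.93 with quantile normalization. On the memory A array 5 of 9 passed the noise limit of 184, against 29.6% of all named genes. Among the 5 were the chemokine Ccl5 at 1269 and the lymph node homing receptor Ccr7 at 505. Gzmb (151), Il2rb (148), Itga4 (35) and Itgal (-16) did not pass.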

How the data were processed

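Per the labels, Trizol was used to extract total RNA, and cRNA was hybridised to Affymetrix arrays. The deposited values are intensity values, 1 whole number per probe set with negative numbers among them. Their 2% trimmed means were 145 to 149 over gene probe sets, and the sources used here do not name the software. Gene symbols came from the platform annotation, matched by Entrez number to a RefSeq gene table of GRCm38.p6 (5532 and 1993 numbers matched, 0 symbols changed).

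The 55 control probe sets of each chip were left out, and both B-chip arrays were scaled to one trimmed mean. The floor was the absolute size that 95% of negative values on the noisier array did not exceed. Lower values were raised to the floor, and log2 ratios followed. On the memory A array the limit came from that array alone, without scaling. A gene in a list was read by its brightest probe set. With 1 array per group and chip no test was possible, and precision is limited by the number of arrays.

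The members and lists were chosen with earlier results of these data known. Genes named from lists were up to 4 per list with the largest ratios among those at least 2 times the floor, plus Thy1, Ly6c1, Isg15 and Csf1r where measured, and the 4 genes nearest to Ly6c2; another gene of the rule is not reported here. Genes outside this rule were picked with their values in view. They include Cd8a, Cd3d, Cd3g, Oas1g, C1qb, C1qc, Vcam1, Cd44, Itga4, the B lineage markers and those named on the A chip. The alternatives were other scalings, floors, thresholds and probe set classes. The call rule was tested on simulated data. Promoter windows were aligned with Biopython 1.88, with free end gaps, and lowess used statsmodels 0.14.6 with a span of 0.4.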

Additional observations from a re-analysis of the deposited data

How the results depend on the processing

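The Ly6c2 ratio kept its direction and stayed past 2-fold under each of the 7 alternative scalings and floors, between 1.77 and 2.40 on the log2 scale. The count of member probe sets called higher became 0 of 1 without sequence-family probe sets, and 0 of 1 with only probe sets without a class letter. Both settings remove Ly6c2 and leave Ly6d. The count kept its value at 1.5-fold, at 3-fold and with the other limits on dim probe sets. For the background, the lower calls went from 113 to 73 with quantile and 54 with lowess normalization. Scaling on sequence-family probe sets gave 130 higher and 71 lower. Halving the floor gave 112 higher and 207 lower, and doubling it 25 and 74, as did a brighter array of at least 4 times the floor. A 1.5-fold threshold gave 109 and 185, and a 3-fold threshold 19 and 39. Without sequence-family probe sets 45 were lower, and with only probe sets without a class letter 4 were higher and 9 lower of 33. Among probe sets above the noise limit of the memory A array, Ly6c2 stood at percentile 97.0 and Ly6e at 88.7. When genes had to exceed the floor on each array, 0 of 3 interferon-induced genes were higher, since the naive values of Isg15 and Ifi204 lie under it. No array could be left out, and the signal over background limits what can be said of Ly6d and the relatives.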

Other observations

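Ly6g, the antigen that defines granulocytes in the mouse, was under the floor on both B-chip arrays (314 in memory and 249 in naive), as was the granule peroxidase Mpo (93.3 and 154). The other 3 of the 5 listed granulocyte genes on the chip were above it, against 26.3% of all named genes there. The calcium-binding protein S100a8 read 3253 in memory and 2461 in naive, the antimicrobial peptide Camp 3180 and 5061, and the iron-binding Ltf 1246 and 1098. Of these 3, 0 differed by 2-fold as scaled here, and with quantile normalization S100a8 was higher in memory (log2 ratio 1.03). Camp changed sign with quantile (0.20) and lowess normalization (0.25). On the memory A array S100a8 read 2483, S100a9 2162 and the granule protein Ngp 1811, all above the noise limit of 184. Of 5 listed there, 4 passed this limit, against 29.6% of all named genes, and the protease Elane at 73 did not. The Ly6g probe set carries no class letter. Whether the sequence-family Ly6c2 probes also read Ly6g was not tested. These genes were picked after their values were seen.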
